A study of Mus musculus with 6 samples.

Results

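The tumour suppressor genes Cdkn2a, Cdkn2b and Trp53 were examined for open chromatin in cultured mouse pro-B cells, the precursors of B lymphocytes in bone marrow. Their members are the ATAC-seq peaks (stretches where the Tn5 transposase inserts often, because DNA is accessible) that overlap a window on chromosome 4 from 88850000 to 89000000, which holds Cdkn2a and Cdkn2b, or a window on chromosome 11 from 69370000 to 69420000, which holds Trp53. Coordinates are 1-based positions of mm9. Peaks of all lists that overlapped by at least 1 bp were merged, which gave 29 regions in the Cdkn2a-Cdkn2b window and 8 in the Trp53 window, 37 of 149724 in the genome. They came from 139 of the 563044 peaks in the lists.

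The study used 6 libraries from 3 pro-B cell lines, 2 for each line. All lines are deficient in RAG2, needed to cut antigen receptor genes for rearrangement, are of strain 129SV and received no treatment. The WT line carries wild type IgH (immunoglobulin heavy chain) alleles, and CBE_1 and CBE_2 carry IgH alleles with a mutated IGCR1 (genotype IGCR1-/-), a CTCF-binding control region of that locus. How the lines were made to grow in culture is not given in the sources used here. Nothing in the labels says that the libraries of a line came from separate cultures, so the spread between them may be technical. With 1 WT line, effects of genotype and of line cannot be told apart. No annotation of the build was used, so pro-B marker genes were not checked and gene positions are approximate.

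Cdkn2a encodes a pair of unrelated proteins from separate promoters. The upstream promoter gives p19ARF, which holds back MDM2 and so stabilises p53, and the downstream promoter gives p16INK4a, an inhibitor of the kinases CDK4 and CDK6 that inactivate RB. Cdkn2b encodes p15INK4b, a related CDK4 and CDK6 inhibitor. Trp53 encodes p53, the transcription factor that halts the cell cycle or starts apoptosis after damage or oncogene stress. Loss or silencing of Cdkn2a or Trp53 is common when B lineage cells are transformed or adapted to long culture, which is why absence of all peaks at a locus, as a deletion on both alleles would give, was looked for.

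Promoter sequences are shown because the results turn on peaks spaced like these starts. They are the 250 bases before each start in RefSeq, build GRCm38.p6, read 5′ to 3′ on the gene's strand from the reference genome and not from these lines. Positions were not carried over from that build to mm9. Capitals mark matches on either strand to a GC box (GGGCGG), an E2F motif (TTTCCCGC), a cyclic AMP response element (TGACGTCA) or an E-box (CACGTG). The entries lie at chr4:89294620-89294869 (Cdkn2a, upstream start, minus strand), chr4:89282193-89282442 (Cdkn2a, downstream start, minus strand), chr4:89311033-89311282 (Cdkn2b, minus strand) and chr11:69580109-69580358 (Trp53, plus strand).
Cdkn2a upstream start: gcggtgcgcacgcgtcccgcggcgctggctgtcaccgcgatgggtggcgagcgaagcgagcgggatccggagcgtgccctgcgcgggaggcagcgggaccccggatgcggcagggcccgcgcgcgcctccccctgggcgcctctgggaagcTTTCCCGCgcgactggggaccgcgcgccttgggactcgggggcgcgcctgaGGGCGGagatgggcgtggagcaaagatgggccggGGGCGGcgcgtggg
Cdkn2a downstream start: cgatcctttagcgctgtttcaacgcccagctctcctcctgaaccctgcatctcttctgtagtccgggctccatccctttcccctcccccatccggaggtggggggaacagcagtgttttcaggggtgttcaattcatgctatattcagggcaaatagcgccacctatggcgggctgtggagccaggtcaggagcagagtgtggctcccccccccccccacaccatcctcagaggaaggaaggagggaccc
Cdkn2b: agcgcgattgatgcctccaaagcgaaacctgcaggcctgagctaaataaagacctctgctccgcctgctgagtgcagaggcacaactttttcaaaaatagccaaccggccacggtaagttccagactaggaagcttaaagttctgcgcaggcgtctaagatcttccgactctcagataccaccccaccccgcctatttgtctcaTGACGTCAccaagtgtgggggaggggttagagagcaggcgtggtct
Trp53: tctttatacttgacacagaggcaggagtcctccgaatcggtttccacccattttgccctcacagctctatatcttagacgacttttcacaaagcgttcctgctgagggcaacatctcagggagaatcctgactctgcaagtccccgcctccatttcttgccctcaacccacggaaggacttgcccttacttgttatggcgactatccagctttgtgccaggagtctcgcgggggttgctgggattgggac

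The upstream start of Cdkn2a has 40 CG dinucleotides in its 250 bases, a number that 1.31% of the 32851 promoters in the table reach, and 78.4% of its bases are G or C. The downstream start has 7, Cdkn2b 12 and Trp53 9, against a median of 6 over all promoters. The upstream start holds 2 GC boxes, a motif found in 32.7% of promoters, and 1 E2F motif, found in 0.895%. Cdkn2b holds 1 cyclic AMP response element, found in 1.55% of promoters. No E-box, present in 6.02% of promoters, was found in these 4 stretches. A match is a description of letters and not a binding site.

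No line lacked all peaks of either locus. In the Cdkn2a-Cdkn2b window the lists held 20 and 18 peaks (WT), 13 and 19 (CBE_1), and 21 and 20 (CBE_2). In the Trp53 window they held 4 and 5 (WT), 3 and 5 (CBE_1), and 5 and 6 (CBE_2). Peaks therefore remained in all 6 libraries at both loci. For scale, the genome was cut into windows of the same length that held a peak in at least 1 library. Of 13639 windows of 150 kb, 0.528% had a peak in the other 4 libraries and none in WT, 5.71% none in CBE_1, and 0.484% none in CBE_2. For windows of 50 kb these shares were 1.05%, 6.28% and 0.491% of 31562. A deletion on 1 allele, or one that falls between peaks, would not empty a window, and this was not tested.

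Peak numbers did not separate the genotypes. The mutated libraries had on average 18.2 peaks in the Cdkn2a-Cdkn2b window and the WT libraries 19.0, a difference of -0.750 (two-sided exact permutation p = 0.933). With every list trimmed to the length of the shortest the difference turned to 3.25, and it turned to 0.250 without WT replicate 1 and to 1.00 without CBE_1 replicate 1. In the Trp53 window the means were 4.75 and 4.50 (difference 0.250, two-sided exact permutation p = 1.00), and the difference was -0.250 in the trimmed lists or without WT replicate 1. With 2 WT and 4 mutated libraries the smallest p this test can give is 0.0667, so no comparison of this kind can pass 0.05, and the p-values given are unadjusted. The test takes the libraries as independent, though each of the 3 lines gave 2 of them. Its p-values, here and below, therefore do not measure the spread between lines. The whole lists held 112241 and 106056 peaks (WT), 72318 and 80242 (CBE_1), and 94665 and 97522 (CBE_2), and the read depth behind them is unknown. Peaks of the Cdkn2a-Cdkn2b window as a share of each list were 0.0178% (95% confidence limits by Wilson's method, 0.0115 and 0.0275) and 0.0170% (0.0107, 0.0268) for WT, 0.0180% (0.0105, 0.0308) and 0.0237% (0.0152, 0.0370) for CBE_1, and 0.0222% (0.0145, 0.0339) and 0.0205% (0.0133, 0.0317) for CBE_2. As shares, both WT values were thus below all 4 mutated ones, the closest being 0.0178% and 0.0180%. All the intervals, which cover counting error only and treat peaks as independent, overlap. In the 1000 kb on each side of the window the lists had 76.5 and 67.0 peaks per Mb (WT), 30.5 and 42.0 (CBE_1), and 48.0 and 51.0 (CBE_2), so there both WT libraries were above all 4 mutated ones, which was not the case inside the window.

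**Figure D1:**
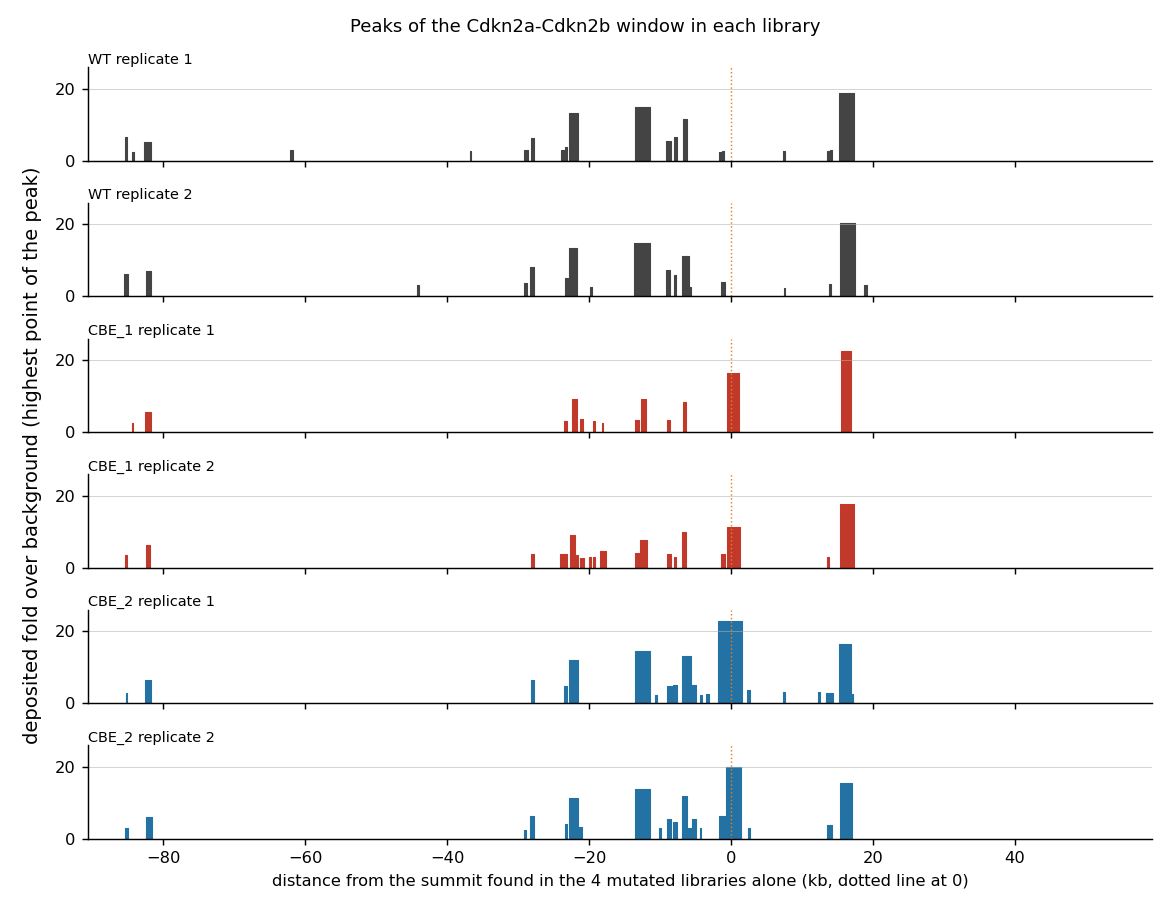
Peaks of the Cdkn2a-Cdkn2b window in each library: the x axis is the distance in kb from the summit found in the 4 mutated libraries alone, and the height of each bar is the deposited fold over background. The CBE_1 and CBE_2 libraries have a strong peak at 0 with folds of 11.2 to 22.8, and neither WT library has a peak there.

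The clearest difference lay at the upper end of Cdkn2a. A peak with its summit between 88940565 and 88940638 was called in each of the 4 mutated libraries and in neither of the WT ones. Its deposited fold over background was 16.4 and 11.2 (CBE_1) and 22.8 and 19.9 (CBE_2). Within each list it stood at the 84.8th and 80.8th percentile of folds in CBE_1 and at the 97.9th and 96.9th in CBE_2, so in CBE_2 it was the strongest peak of the whole window in both libraries. The bases common to the 4 peaks run from 88940084 to 88941714, 1631 bp. No WT peak covered the summit: the nearest ones ended 0.913 and 0.860 kb before it and began 7.25 and 7.39 kb after it. The WT lists report peaks down to folds of 2.06 and 2.09.

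**Figure D2:**
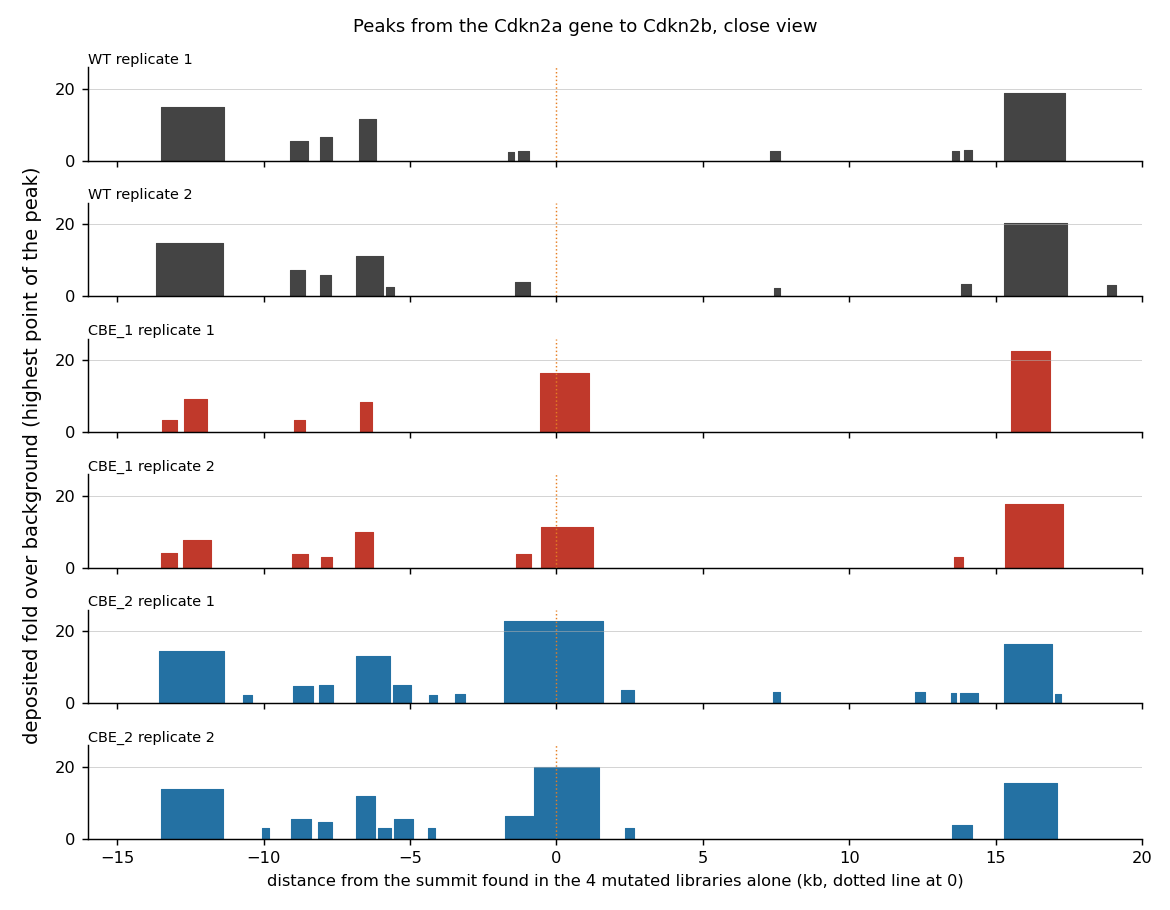
Close view of the peaks from Cdkn2a to Cdkn2b in each library: the x axis is the distance in kb from the summit found in the 4 mutated libraries alone, and bar height is the deposited fold over background. The WT libraries show weak peaks with folds of 2.49 to 4.06 just left of 0 and none at 0, while the peaks near -12 and +16 kb are present in all 6 libraries.

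The position of this peak was compared with the starts of the genes. Its summit lay 0.394 kb below the upper border that the window rule gives, approximately, for Cdkn2a in mm9. Cdkn2a is on the minus strand, so that border is its upstream end. Among the summits found in all 6 libraries, it was 12.4 kb from the one inside Cdkn2a with the highest mean fold and 16.3 kb from the one on the Cdkn2b side. In GRCm38.p6 the upstream start of Cdkn2a is 12.4 kb from the downstream start and 16.4 kb from the start of Cdkn2b. These 3 summits in mm9 are thus spaced like the 3 starts whose sequences are printed above, with the peak missing from WT in the place of the upstream, p19ARF start. Other strong summits of the window, found in all 6 libraries, lay 6.54 and 22.2 kb from it, which matches neither distance, and both had higher folds than the one at 12.4 kb in CBE_1 replicate 2 (9.90 and 9.17, against 7.61). These spacings are a description, no coordinate was converted, and no peak was assigned to a start. The start of the lncRNA gene Gm12610 lies 0.561 kb from the upstream start of Cdkn2a in GRCm38.p6, so the peak may cover it too.

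Peaks with a summit within 250 bp of the next were joined into summit groups to separate this peak from its neighbours, and 1.70% of 176441 groups in the genome were called in every mutated library but in no WT one. The Cdkn2a-Cdkn2b window held 1 such group of 37, and the Trp53 window 0 of 8. Of the 3006 such groups in the genome, 179 (5.95%) stood at least as high in the mutated library where they ranked lowest. Whether a WT peak with a summit farther off covers such a group was checked only for the one at Cdkn2a. The group was picked for this pattern, so no test of it is given. In lists trimmed to the same length of 72318 peaks it remained at percentiles of 84.8 and 78.8 (CBE_1) and 97.3 and 95.8 (CBE_2), with no WT peak. Whether the DNA of this stretch is missing or its chromatin is closed in the WT line was not tested. Peaks on either side remained in both WT libraries, which leaves a peak-free stretch of 8.23 and 8.32 kb. Stretches of such length are common: gaps of at least 24.8 kb made up 17.1% of all gaps between peaks in WT replicate 1. In WT replicate 2, gaps of at least 37.5 kb made up 12.3%.

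Merging by 1 bp joined this peak to a weaker one beside it. The weaker one had its summit between 88939374 and 88939544, with folds of 2.81 and 4.06 (WT), 3.75 (CBE_1 replicate 2) and 6.33 (CBE_2 replicate 2). In CBE_2 replicate 1 a peak of 3.37 kb spanned both places. The merged region, 88938814 to 88942183, therefore counted as present in all 6 libraries. To compare such shared regions between lists of unequal length, the highest fold of each was turned into a percentile among the 47767 regions present in all 6. Here the percentile was 1.12 and 12.1 (WT), 77.4 and 68.7 (CBE_1), and 95.9 and 93.7 (CBE_2). The mutated mean exceeded the WT mean by 77.3 points. The mutated values are those of the peak picked above, and the WT values are those of the weaker peak beside it. The difference therefore does not compare 1 summit between the genotypes, and no test of it is given. Rises as large were found in 16 shared regions of the genome, this one included (0.0335%). As the region was picked for its peak in the mutated lists, this share is a description and not a test. With percentiles over whole lists the rise was 57.6, and without CBE_2 replicate 1, which holds the broad peak, the region was not shared by all libraries.

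The other shared regions of the Cdkn2a-Cdkn2b window differed far less between the genotypes. Over all 8 shared regions, in 1 every mutated library ranked above every WT library, against 20.3% of shared regions across the genome. That 1 is the merged region just described, and none of the others was above. In 2 every mutated library ranked below, against 20.1%. The 8 shared regions are 27.6% of the 29, against 31.9% in the genome. By line, both CBE_1 libraries were above both WT libraries in 2 and below in 4 of the 8, against 36.9% and 33.6% in the genome. Both CBE_2 libraries were above in 2 and below in 2, against 33.2% and 33.2%. For each line the regions above include the merged region just described.

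**Figure D3:**
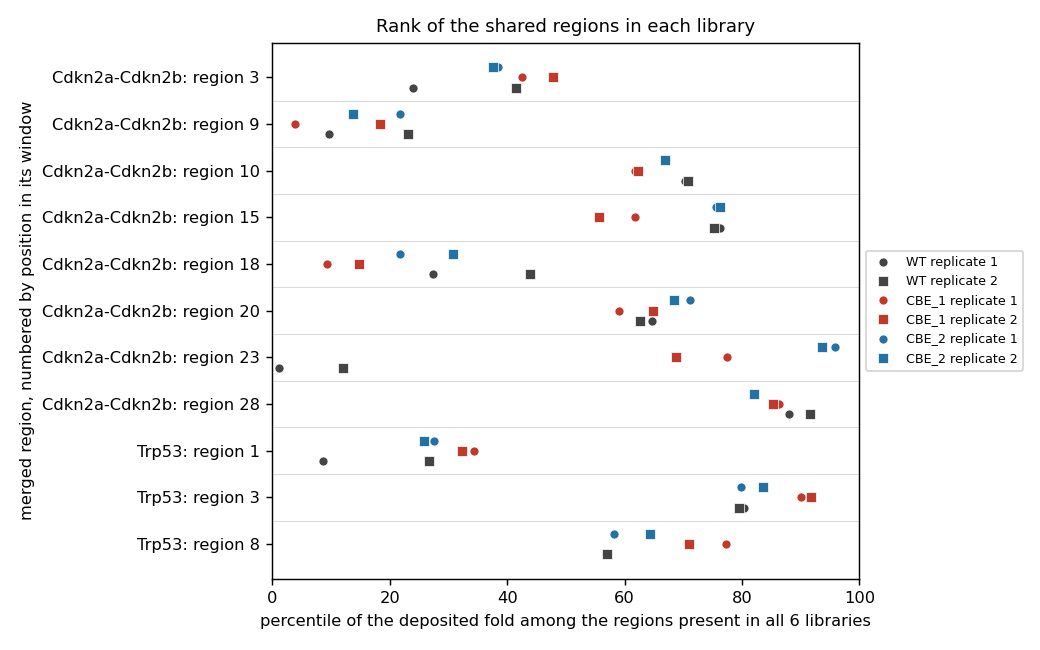
Percentile of the deposited fold among the regions present in all 6 libraries (x axis) for the 11 shared regions of both windows (y axis): colours mark lines, circles replicate 1 and squares replicate 2. Region 23 of the Cdkn2a-Cdkn2b window stands at 1.12 and 12.1 (WT) and at 68.7 or higher in the mutated libraries, and the other regions differ by far less between the genotypes. For region 23 the WT values are those of a weaker peak beside the one in the mutated libraries.

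The region spaced like the downstream start of Cdkn2a, that of p16INK4a, was open in every library. It ran from 88926931 to 88929248, with folds of 15.0 and 14.8 (WT), 9.05 and 7.61 (CBE_1), and 14.5 and 14.0 (CBE_2). Its shared percentile was 76.3 and 75.2 (WT), 61.8 and 55.7 (CBE_1), and 75.6 and 76.3 (CBE_2). Both CBE_1 libraries lay below the other 4, while CBE_2 and WT overlapped. The mutated and WT means differed by -8.40 points (two-sided exact permutation p = 0.400), by -4.37 without CBE_1 replicate 2 and by -13.4 in the better 50% of each list. The region was called as 1 peak in each WT library, of 2.15 and 2.27 kb, and each CBE_2 library, of 2.21 and 2.14 kb. In CBE_1 it was split into 2 peaks, both inside the stretch that the WT and CBE_2 peaks cover. The main one measured 0.779 and 0.949 kb. The other measured 0.483 and 0.531 kb, with folds of 3.47 and 4.17 and its summit between 88927250 and 88927280.

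The region spaced like the start of Cdkn2b, the p15INK4b gene, was the strongest of the window in both WT and both CBE_1 libraries. It ran from 88955893 to 88958037, with folds of 18.7 and 20.3 (WT), 22.5 and 17.7 (CBE_1), and 16.6 and 15.6 (CBE_2). The shared percentile was 88.0 and 91.6 (WT), 86.3 and 85.2 (CBE_1), and 82.1 and 82.0 (CBE_2). All 4 mutated libraries were below both WT libraries, with a difference of means of -5.90 points (two-sided exact permutation p = 0.0667), or -9.55 in the better 50% of each list. In 24.7% of shared regions the mean fell by as much, so the size is common in the genome. Nearby on the Cdkn2a side, the region from 88954062 to 88955015 had folds of 3.03 and 3.41 (WT), 3.02 (CBE_1 replicate 2), and 2.94 and 3.87 (CBE_2), and no peak in CBE_1 replicate 1. The region from 88947887 to 88948248, inside the stretch between the genes, had folds of 2.81 and 2.42 (WT) and 3.19 (CBE_2 replicate 1) and was missing from the other 3 lists. The region from 88942799 to 88943266, beside the peak missing from WT, was found in CBE_2 alone, with folds of 3.56 and 3.01.

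Between the summits spaced like the Cdkn2a starts, a further set of regions was open. The region from 88933725 to 88935692 had folds of 11.7 and 11.2 (WT), 8.29 and 9.90 (CBE_1), and 13.1 and 11.8 (CBE_2). Its percentiles of 64.6 and 62.7 (WT), 59.1 and 64.8 (CBE_1), and 71.2 and 68.4 (CBE_2) overlapped between the genotypes (difference 2.29, two-sided exact permutation p = 0.533), with both CBE_2 libraries above both WT libraries. The difference was -3.65 with percentiles over whole lists, and with 1 library left out ranged from 0.531 (without CBE_2 replicate 1) to 4.25 (without CBE_1 replicate 1). The region from 88931490 to 88932296 stood at 27.4 and 43.8 (WT), 9.30 and 14.8 (CBE_1), and 21.8 and 30.7 (CBE_2). Both CBE_1 libraries were again lowest, and the genotypes overlapped (difference -16.4, two-sided exact permutation p = 0.200). The difference was -8.74 without WT replicate 2 and -24.8 without WT replicate 1. The region from 88932443 to 88932983 had folds of 6.71 and 5.82 (WT), 2.92 (CBE_1 replicate 2), and 5.15 and 4.72 (CBE_2), with no peak in CBE_1 replicate 1. CBE_2 alone had a weak region at 88936211 to 88936527, with folds of 2.33 and 2.90. Inside the region from 88933725 to 88935692, CBE_2 alone also had a stronger peak with its summit between 88935319 and 88935416. Its folds were 5.15 and 5.48, at percentiles of 57.2 and 61.6 of the lists, and merging by 1 bp hides it in the shared region. The share of CBE_2-only summit groups across the genome was not counted.

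Toward the downstream end of Cdkn2a, weak peaks were found mainly in CBE_1. The regions from 88921140 to 88921412, with folds of 3.17 and 3.02, and from 88922123 to 88922932, with folds of 2.41 and 4.48, were found in both CBE_1 libraries alone. CBE_1-only regions thus numbered 2 of 29 (6.90%), against 0.667% in the genome, and CBE_2-only regions also 2 (6.90%, against 3.14%). No WT-only region was found, against 8.68% in the genome, none absent from CBE_1 alone, against 5.05%, none absent from CBE_2 alone, against 0.653%, and, merged by 1 bp, none found in the mutated lines alone, against 1.52%. The region from 88920645 to 88920990 had folds of 2.53 (WT replicate 2) and 2.81 (CBE_1 replicate 2), and the region from 88919199 to 88919906 had folds of 3.62 and 2.71 (CBE_1) and 3.22 (CBE_2 replicate 2).

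Below Cdkn2a, on the side of Mtap, the methylthioadenosine phosphorylase gene, a cluster of regions lay close to the gene's downstream end. The strongest, from 88917804 to 88919074, had folds of 13.3 and 13.5 (WT), 9.05 and 9.17 (CBE_1), and 11.9 and 11.4 (CBE_2). Its percentiles of 70.3 and 70.8 (WT) were above all mutated ones, 61.8 and 62.3 (CBE_1) and 67.1 and 66.9 (CBE_2) (difference -6.01, two-sided exact permutation p = 0.133, or -9.77 in the better 50% of each list). A difference as large in this direction was found in 24.4% of shared regions. Beside it the region from 88916554 to 88917568 stood at 9.69 and 23.1 (WT), 3.89 and 18.3 (CBE_1), and 21.8 and 13.8 (CBE_2), which overlapped (difference -1.92, two-sided exact permutation p = 0.800). Its sign rests on single libraries. Leaving out WT replicate 1 gave -8.98, but leaving out WT replicate 2 gave 4.08 and leaving out CBE_1 replicate 1 gave 3.48. The region from 88912326 to 88912881 had folds of 6.28 and 8.13 (WT), 3.75 (CBE_1 replicate 2), and 6.38 and 6.44 (CBE_2), and the weak one from 88911444 to 88911934 had folds of 2.92 and 3.85 (WT) and 2.36 (CBE_2 replicate 2). Neither had a peak in CBE_1 replicate 1.

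The longest stretch between neighbouring peaks of the window, with the stretches at its 2 borders left aside, lay between this cluster and the regions nearest to Mtap. It measured 24.8 and 37.5 kb (WT), 58.2 and 53.7 kb (CBE_1), and 53.5 and 52.6 kb (CBE_2). Stretches at least as long made up 17.1% and 12.3% of all gaps between peaks in the WT lists, 10.2% and 9.91% in CBE_1, and 9.15% and 8.99% in CBE_2. It was shorter in the WT lists, which had 3 weak peaks there with folds of 2.81 to 3.30 that no mutated list held. Beyond it, the region from 88857897 to 88858954 was shared, at percentiles of 24.0 and 41.5 (WT), 42.5 and 47.8 (CBE_1), and 38.5 and 37.5 (CBE_2) (difference 8.80, two-sided exact permutation p = 0.333). Leaving out WT replicate 1 gave a difference of -0.0706 and leaving out WT replicate 2 one of 17.1. Percentiles over whole lists gave -1.79. The region from 88855125 to 88855571 had folds of 6.71 and 6.26 (WT), 3.44 (CBE_1 replicate 2), and 2.70 and 2.90 (CBE_2). It stood at percentiles of 70.9 and 67.0 of the WT lists, 36.7 (CBE_1 replicate 2), and 9.77 and 20.8 (CBE_2), and CBE_1 replicate 1 had no peak there. The region from 88856176 to 88856485 had folds of 2.38 (WT replicate 1) and 2.56 (CBE_1 replicate 1).

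**Figure D4:**
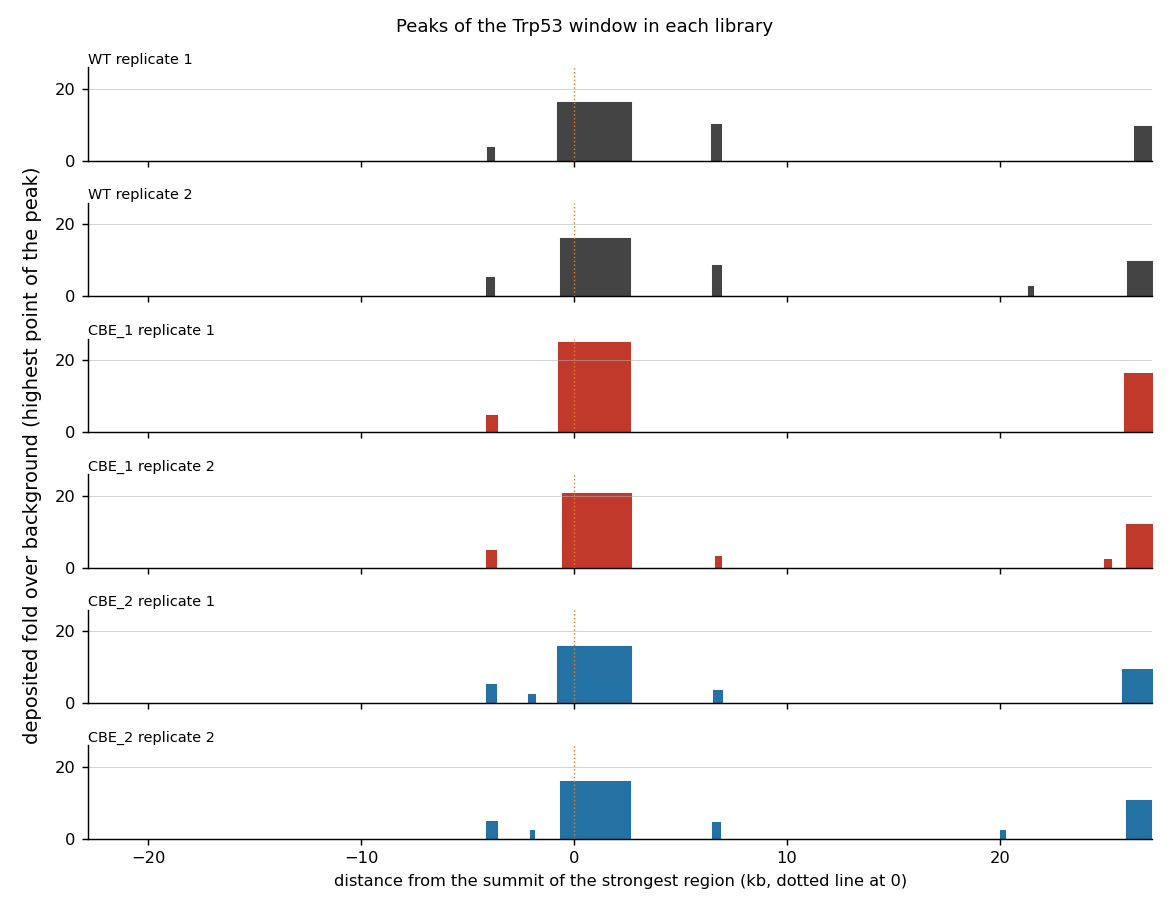
Peaks of the Trp53 window in each library: the x axis is the distance in kb from the summit of the strongest region and bar height is the deposited fold over background. That region and those near -4 and +27 kb are present in all 6 libraries, and the peak near +7 kb has folds of 10.2 and 8.68 (WT) and of 3.34 to 4.72 in the mutated libraries that have it.

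At Trp53 the strongest region was open in every library. It ran from 69392014 to 69395509 and had folds of 16.2 and 16.1 (WT), 25.0 and 20.6 (CBE_1), and 15.8 and 16.0 (CBE_2). The shared percentile was 80.3 and 79.5 (WT), 90.0 and 91.8 (CBE_1), and 79.9 and 83.5 (CBE_2). Both CBE_1 libraries lay above the other 4, and the genotypes overlapped (difference 6.40, two-sided exact permutation p = 0.200, or 1.43 with percentiles over whole lists). In GRCm38.p6 the start of Trp53 lies 0.109 and 1.11 kb from the starts of Wrap53, a gene of the opposite strand needed for telomerase assembly, and the region is long enough to hold all of them. Whether the region does hold these starts was not checked in mm9, and accessibility of the Trp53 and Wrap53 starts was not separated.

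The region from 69399261 to 69399795, whose summits lie 6.75 kb above that of the strongest region, ranked higher in WT. Its folds were 10.2 and 8.68 (WT), 3.34 (CBE_1 replicate 2), and 3.68 and 4.72 (CBE_2), and CBE_1 replicate 1 had no peak. In lists trimmed to the same length it stood at percentiles of 71.3 and 65.7 (WT), 27.0 (CBE_1 replicate 2), and 19.9 and 39.4 (CBE_2). Both WT libraries were above every mutated one that had the peak. How often regions missing from a list show this order across the genome was not counted. Among regions present in every library, all 4 mutated libraries ranked below both WT libraries in 20.1%, by shared percentile. Trp53 is on the plus strand, so by direction of the gene this place lies downstream of the strongest region. Without an annotation of the build it was not placed relative to the start, an exon or an intron.

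The mean percentile of the remaining shared regions of the Trp53 window was higher in the mutated libraries. The region from 69418580 to 69420138, toward Atp1b2, the next coding gene, which encodes a sodium pump subunit, reaches past the border of the window. Its folds were 9.74 and 9.78 (WT), 16.3 and 12.0 (CBE_1), and 9.56 and 10.7 (CBE_2). Its percentiles were 56.8 and 57.0 (WT), 77.2 and 70.9 (CBE_1), and 58.2 and 64.3 (CBE_2), so all 4 mutated libraries were above both WT libraries (difference 10.8, two-sided exact permutation p = 0.133). With percentiles over whole lists the difference was 1.56 (two-sided exact permutation p = 0.533) and CBE_2 replicate 1, at 77.7, fell below WT, at 80.6 and 79.5; without CBE_1 replicate 1 the difference in shared percentile was 7.03. The region from 69388676 to 69389206 stood at 8.55 and 26.6 (WT), 34.4 and 32.3 (CBE_1), and 27.5 and 25.8 (CBE_2), and overlapped (difference 12.4, two-sided exact permutation p = 0.133). Leaving out WT replicate 1 lowered this to 3.22 and leaving out WT replicate 2 raised it to 21.0. Percentiles over whole lists gave 2.95. Over the 3 shared regions of the window, 1 was above WT in all mutated libraries, against 20.3% in the genome, and 0 below. Every CBE_1 library was above every WT library in 3 of 3, against 36.9% in the genome, and both CBE_2 libraries in 1 of 3, against 33.2%. Chromosome 11 as a whole held 5.27% and 5.34% of peaks (WT), 7.14% and 6.72% (CBE_1), and 6.12% and 6.16% (CBE_2), and the part of this in the ranks at Trp53 was not tested. The region from 69390672 to 69391010 was found in CBE_2 alone, with folds of 2.57 and 2.36.

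Regions found in 1 library numbered 8 of 29 in the Cdkn2a-Cdkn2b window and 3 of 8 in the Trp53 window. The share of such regions across the genome was not counted, so these numbers, and their split by line, are a description only. Their folds ran from 2.33 to 3.30 and from 2.50 to 2.86. Of the 8, 4 came from WT, 4 from CBE_2 and none from CBE_1. None of the 11 stood above the 32.0th percentile of its list.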

How the data were processed

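ATAC-seq was run on 200000 cells per library with 11 PCR cycles and sequenced as single reads, per the labels. Per the submitters' processing notes, the tools included Trimmomatic, Bowtie2, SAMtools and Picard (no versions) and the build was mm9. Which peak caller was used, how it was set and whether reads were shifted for Tn5 is not given in the sources used here. The authors deposited 1 list of peaks per library, with positions, a score (not used here), a fold over background (a ratio), and −log10 of the p-value and q-value. These are the authors' own values per peak and were used to rank within a list. Ranks are percentiles of the fold, with ties averaged. Libraries were grouped and numbered from their titles and accession order.

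Peaks were merged at 1 bp overlap, or grouped by summits in steps of at most 250 bp, with Python 3.11.15, pandas 2.3.3 and numpy 2.4.6. Grouping by summit was chosen after seeing the data. WT and mutated libraries were compared by exact permutation over all 15 splits. Merging by 1 bp and grouping by summit were tested on simulated lists. Their places lay too far apart for a peak to bridge neighbours, so that case was not covered. The permutation test was checked on a case with a known answer, and the ranking was not simulated. Every region in at least 2 libraries is named. Windows and members were chosen with earlier results of these data known. The planned look at p53 and RB pathway genes was not run, since it needs an annotation of the build.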

Additional observations from a re-analysis of the deposited data

How the results depend on the processing

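No paired analysis was possible because the labels number no libraries that could be matched across lines. Both windows kept a peak in every library under all alternatives. The mean peak number, mutated minus WT, in the Cdkn2a-Cdkn2b window was 3.25 with lists of the same length, and ranged from -1.75 to 1.00 when 1 library was left out. In the Trp53 window it was -0.250 with lists of the same length and with the better 50% of each list, and ranged from -0.250 to 0.833 when 1 library was left out. Regions shared by all libraries of the Cdkn2a-Cdkn2b window numbered 5 with the better 50% of each list, and 7 to 12 with 1 library left out, where only the other 5 had to agree. The mutated-only summit group at the upstream end of Cdkn2a was found under every alternative run. Their number rose to 2 with steps of at most 100 bp, which split the summits of the region at 88926931, and to 2 without CBE_2 replicate 1, and ranged from 1 to 2 with 1 library left out. The 77.3-point rise of the merged region was 57.6 with percentiles over whole lists and ranged from 71.2 to 82.6 with 1 library left out. Without CBE_2 replicate 1, and with the better 50% of each list, it has no value because the region was not shared by all libraries. With percentiles over whole lists the difference turned to -1.79 for the region at 88857897 and to -3.65 for that at 88933725. With 1 library left out the former ranged from -0.0706 to 17.1, below 0 without WT replicate 1, and that at 88916554 from -8.98 to 4.08, above 0 without WT replicate 2 or CBE_1 replicate 1. The causes were not tested. Read depth is unknown, so an absent peak means only that none passed the authors' threshold.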

Other observations

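How peaks are joined decides whether the peak at the upper end of Cdkn2a counts as found in the mutated lines alone. Merged by 1 bp, the region that holds it ranks 77.3 points higher in the mutated libraries, with the WT rank taken from a weak neighbour. That region counts as shared by all 6 libraries, because the neighbour was called in WT and 1 broad CBE_2 peak bridges the gap. The peak is then missing from any count of regions open in the mutated lines alone. Grouped by summits it is present in the 4 mutated libraries and neither WT library. Summit groups of this kind were also counted across the genome, without checking whether a WT peak with a summit farther off covers them. A summit that shifts within a broad shared peak would be counted too. Of the 3006 summit groups found in the mutated libraries alone, 842 (28.0%) lie in merged regions that count as shared by all 6. Among the 179 that stand at least as high as the Cdkn2a one, 93 (52.0%) do so, and 84 (46.9%) lie in merged regions that are themselves found in the mutated libraries alone.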
